A study of Mus musculus with 3 samples.

Results

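The 40 genes described here encode the core of TGF-beta and BMP signalling. They were listed by name and by no cut on a measured value, though with earlier results of these data known. They are 14 ligands, 10 receptors, 8 Smads, 4 antagonists and 4 further genes (Id1, Id2 and Id3, known targets of the pathway, and Ltbp1, which holds latent TGF-beta in the matrix). They are 40 of the 21593 protein-coding genes counted. Their chromatin was profiled by single-nucleus ATAC-seq, in which the transposase Tn5 inserts adapters into open DNA inside nuclei that then receive a droplet barcode. The embryos were mice of the strain C57BL/6JRj, all wild type, and 1 library was made per stage. The E12.5 library gave 153 nuclei, that of E13.5 gave 970 and the one made at E15.5 gave 756. No sample carried a mutation or received a treatment, nuclei of several frozen sections were combined at each stage, and the number of embryos behind a library was not given. A stage and its library therefore cannot be told apart.

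Accessibility of a gene was the number of unique fragments over its body and the 2 kb upstream, summed over the nuclei of a cluster in a library and given as counts per 1000000 such fragments (CPM). Clusters are those the authors deposited, numbered 0 to 11, and clusters 2 and 4 were left out by the rule that defined the gene set. Because the clusters were made from these same nuclei, each test below describes the clusters. By marker genes raised at least 1.5-fold at E13.5, clusters 0 and 6 were neuron-like (8 and 7 of 8 markers), cluster 9 neural progenitor-like (7 of 7), cluster 1 mesenchyme-like (7 of 7), cluster 10 muscle-like (7 of 7), and clusters 5 and 11 erythroid-like (8 of 8 in each). Clusters 3, 7 and 8 were left unnamed. Cluster 3 raised 7 of 7 mesenchyme markers, but 4 of its 10 leading genes by fold were olfactory or vomeronasal receptor genes, against 0 to 3 in the other 8 clusters. At E15.5 it raised 6 of 7 mesenchyme, 3 of 5 heart muscle, 3 of 5 cartilage, 3 of 5 Schwann cell or neural crest and 3 of 6 liver markers. Cluster 7 raised 5 of 5 cartilage, 5 of 6 epithelial and 3 of 5 Schwann cell or neural crest markers, and cluster 8 raised 6 of 6 liver, 5 of 6 white blood and 4 of 6 endothelial markers. Cluster 10 also raised 3 of 5 sensory neuron markers at E13.5, and 3 of 5 heart muscle and 3 of 5 Schwann cell or neural crest markers at E15.5. Its 7 skeletal muscle markers summed to 910 and 1133 CPM at E13.5 and E15.5, its 5 sensory neuron markers to 208 and 156, its 5 heart muscle markers to 235 and 242 and its 5 Schwann cell or neural crest markers to 170 and 204. The part of these in the calls of cluster 10 was not tested. Cluster 6 also raised 2 of 7 neural progenitor markers at E13.5 and 4 of 7 at E15.5. The 7 summed to 276 and 298 CPM there, against 612 and 582 CPM in cluster 9, and their part in the calls of cluster 6 was not tested.

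The nuclei of the 3 libraries held 8603028, 66925016 and 39513357 unique fragments, in the order of stage. A barcode sequence was shared by 2 libraries in 1 case, and 5, 32 and 138 nuclei shared enough fragments with another barcode of their library to be linked. A sum was used where a cluster had at least 10 nuclei in a library and at least 2 such sums, which gave 23 sums in 9 clusters. Clusters 0, 1, 3, 5 and 9 had a sum at every stage, and clusters 6, 7, 8 and 10 at E13.5 and E15.5. The sums of cluster 5 rested on 10, 166 and 10 nuclei, so that its E12.5 and E15.5 values were coarse. The authors' tally of fragments near gene starts was 15.6 to 17.6% in cluster 3 and 23.1 to 33.3% in cluster 5. Nuclei of cluster 3 were the deepest in each library, with medians of 132132, 104625 and 99142.5 fragments. No doublet caller was run, and the sources used here do not say how the authors treated doublets. The part of these values in the differences reported for the 2 clusters was not tested.

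In this pathway, secreted dimers of the TGF-beta, BMP, GDF and activin families bring type I and type II receptor kinases together, and the type I receptor phosphorylates a receptor Smad that enters the nucleus with Smad4. Smad2 and Smad3 carry TGF-beta and activin signals, Smad1, Smad5 and Smad9 carry BMP signals, and Smad6 and Smad7 inhibit. Antagonists such as Noggin and Chordin bind ligands outside the cell, and in the embryo the balance of ligand and antagonist patterns neural tube, limb and skeleton.

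The first question was which of these genes differed in accessibility between cell classes. Of the 40 genes, all passed the filter on low counts and 34 differed between any classes (edgeR's quasi-likelihood F-test, adjusted p under 0.05), where 40% of the 19196 genes tested did. The 6 that missed it were Gdf10, Inhba, Bmpr2, Acvr1b, Smad2 and Grem1. With each cluster set against the mean of the other 8, there were 82 calls in 35 genes. In 14 of the 82 (17.1%) no sum of the cluster overlapped the others, where this held for 21.1% of the 14313 calls over all genes.

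The erythroid-like cluster 5 stood lowest for most of the pathway. There, 28 genes were lower and 1 higher, with 30.5% of all genes called, 16.4% lower and 14.2% higher. Its median log2 difference was -0.85 over the 40 genes and -0.03 over all genes tested. At E13.5 it held the lowest level of the 9 clusters for 23 of the 40 genes (57.5%, against 17.6% of all genes tested), and at E15.5 for 21 (52.5%, against 35.2%). In every other contrast the mean of the others holds cluster 5, and its part in those differences was not tested. The 11 calls in mesenchyme-like cluster 1 were all higher, where 3.97% of all genes were called and 2.90% were higher. The same held for the 8 calls in cluster 3 (6.00% called, 3.59% higher), while all 4 calls in neuron-like cluster 0 were lower (8.25% called, 2.74% lower and 5.51% higher).

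Progenitor-like cluster 9 had 6 genes higher and 3 lower (5.16% called, 4.16% higher and 1.00% lower), and muscle-like cluster 10 had 5 higher and 1 lower (6.76% called, 5.69% higher and 1.07% lower). In cluster 8, 3 genes were higher and 9 lower (8.32% called, 4.54% higher and 3.78% lower). Cluster 6 had 1 gene higher and 1 lower (3.96% called, 3.33% higher and 0.63% lower), and cluster 7 had 1 gene higher (1.58% called, 1.26% higher and 0.323% lower), close to the shares over all genes. The map of fitted differences shows these columns side by side.

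**Figure D1:**
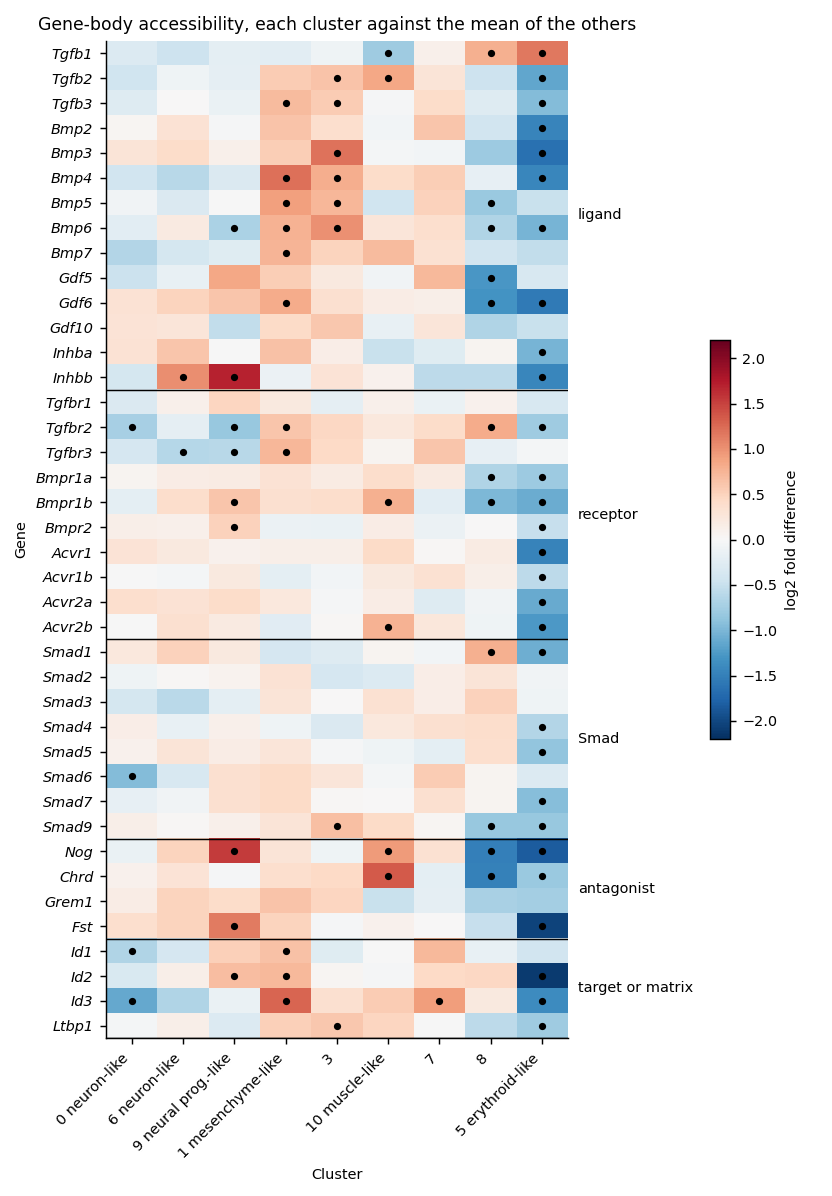
Log2 fold difference in gene-body accessibility of each of 9 clusters against the mean of the other 8, for the 40 genes by role. Colour gives the difference (red higher, blue lower) and a dot marks an adjusted p under 0.05. Cluster 5 holds 28 of the lower calls, and the 11 calls of cluster 1 are all red.

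These calls rested mainly on the 2 deeper libraries. Without the E13.5 library 67 of the 82 calls were lost, without E15.5 47 and without E12.5 4, and in no case did the direction change. The count in cluster 5 was 9 without E13.5 and 24 without E15.5. It was 1 and 4 in cluster 1, 0 and 1 in cluster 3, 1 and 0 in cluster 0, 3 and 3 in cluster 9, 1 and 0 in cluster 10, 0 and 3 in cluster 8, and 0 and 0 in clusters 6 and 7. Leaving out E12.5 moved the counts of clusters 6 and 7 to 4 each. The share of all genes called in these fits was not tallied, so the losses cannot be set against those of other genes. The 12 calls that passed whichever library was left out were those of Tgfb1, Tgfb2, Bmp6, Gdf6, Acvr1, Acvr2b, Bmpr1b, Fst and Id2 in cluster 5, of Id3 in cluster 1, and of Inhbb and Nog in cluster 9. Each of the other calls was lost without at least 1 library. Scaled to all fragments, the median of all genes moved by -0.17 in cluster 3, 0.21 in cluster 5 and 0.11 in cluster 8 on the log2 scale, and the pathway calls became 4 higher and 2 lower, 1 higher and 23 lower, and 4 higher and 4 lower. The share of all calls that were higher moved under that scale from 59.9 to 13.3% in cluster 3, from 46.5 to 68.1% in cluster 5, from 54.6 to 73.1% in cluster 8, from 66.8 to 49.9% in cluster 0, from 84.1 to 70.3% in cluster 6 and from 79.6 to 89.7% in cluster 7.

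Among the 14 ligands, 6 were higher in cluster 1 and 6 in cluster 3, while 9 were lower in cluster 5. Over the promoter (1000 bp upstream to 100 bp downstream of the gene start), where Bmp3 and Bmp5 were not tested, these counts were 2, 4 and 7. Bmp4, a ligand that patterns mesoderm and limb, was at 46.4, 52.7 and 55.5 CPM in cluster 1 (values of a cluster follow the order of stage throughout), while the other 20 sums ran from 8.46 to 45.4 with a median of 21.4. All 3 sums of cluster 1 lay above every other sum, a log2 difference of 1.21 ± 0.20 (SE, adjusted p = 0.000207). This call was lost without E13.5 (adjusted p 0.0846), and over the promoter cluster 3 was the highest at E13.5 and at E15.5. In cluster 5 Bmp4 was at 12.8, 10.7 and 8.46 CPM, lower by -1.43 ± 0.31 (adjusted p = 0.00051). Bmp3, which acts mostly against other BMPs in bone, was at 52.3, 36.8 and 38.0 CPM in cluster 3 and at 2.82 to 34.4 elsewhere, with no overlap (1.19 ± 0.25, adjusted p = 0.0059). It too was lower in cluster 5, at 10.3, 8.12 and 2.82 CPM (-1.64 ± 0.39, adjusted p = 0.00116).

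Bmp6, linked to iron and cartilage, was at 197, 180 and 183 CPM in cluster 3 and at 191, 155 and 143 CPM in cluster 1, above the median of the others in every sum. Its log2 differences were 1.01 ± 0.15 (adjusted p = 0.000636) and 0.77 ± 0.16 (adjusted p = 0.00221), and it was lower in clusters 5, 8 and 9. Bmp5, a ligand of skeletal condensations, was at 160, 98.9 and 73.4 CPM in cluster 1 (0.91 ± 0.19, adjusted p = 0.00231), overlapping the others at 26.0 to 110. The value at E12.5 was the highest of its 3. Bmp7 was at 296, 176 and 157 CPM there (0.74, adjusted p = 0.0412), with the highest value in the E12.5 sum of 10 nuclei. Its call was lost without any 1 of the libraries (adjusted p 0.0776, 0.132 and 0.170 without E12.5, E13.5 or E15.5), and its highest level was in cluster 10 at E13.5 (207 CPM) and in cluster 3 at E15.5 (185 CPM). Gdf6, needed for joints and the eye, was at 49.3, 59.5 and 39.2 CPM in cluster 1 (0.81 ± 0.22, adjusted p = 0.0222). That call was lost without E13.5 (adjusted p 0.447) and without E15.5 (adjusted p 0.200), and at E15.5 the highest level was in cluster 9. Gdf6 was at 5.14, 15.8 and 2.82 CPM in cluster 5, against 12.2 to 60.3 elsewhere (-1.56 ± 0.31, adjusted p = 0.000155).

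Of the 6 ligand genes higher in cluster 3, Bmp4, Bmp5, Bmp6 and Tgfb3 were also higher in cluster 1, and Bmp3 and Tgfb2 were not called there. Tgfb2 was at 170, 137 and 107 CPM in cluster 3 (0.62 ± 0.17, adjusted p = 0.0246). The summed level of the 7 mesenchyme markers was 531 and 547 CPM in cluster 3 at E13.5 and E15.5, 696 and 822 CPM in cluster 1, and 157 to 361 CPM in the other 7 clusters, with none of the 7 at 0 at E13.5. The part of that marker level, or of the other markers that cluster 3 raised at E15.5, in the calls of cluster 3 was not tested.

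Tgfb1 was the ligand gene called higher in cluster 5. This cytokine of blood and immune cells was at 71.9, 108 and 121 CPM in cluster 5 and at 77.2 and 99.8 CPM in cluster 8, while the 20 sums outside cluster 5 had a median of 41.7. Its sums in cluster 5 lay above the median of the others at each stage but overlapped those of cluster 8. The log2 difference was 1.17 ± 0.17 in cluster 5 (adjusted p = 2.42e-06), 0.78 ± 0.18 in cluster 8 (adjusted p = 0.00584) and -0.79 ± 0.22 in cluster 10 (adjusted p = 0.0242). In cluster 8 the 6 white blood markers summed to 431 and 364 CPM at E13.5 and E15.5, the 6 endothelial markers to 403 and 761 CPM and the 6 liver markers to 306 and 120 CPM, with none at 0 at E13.5, and their part in the level of Tgfb1 was not tested. Tgfb2 showed the reverse order, at 48.8, 41.5 and 53.6 CPM in cluster 5, below all 20 other sums (-1.14 ± 0.23, adjusted p = 0.000167), and at 144 and 127 CPM in cluster 10 (0.84 ± 0.20, adjusted p = 0.00469). Tgfb3 was higher in clusters 1 and 3 and, at 12.8, 30.5 and 31 CPM, below all others in cluster 5 (-0.95 ± 0.23, adjusted p = 0.00145), although 21.2% of its counted span is shared with Ttll5.

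Of the 250-bp windows of Tgfb1 that touch no exon, the one with the largest excess in cluster 5 is shown. It holds none of the 4 motifs searched. It is chr7:25686751-25687000 (GRCm38.p6, plus strand), 75.2% G and C, just upstream of the gene start and outside any annotated exon.
Tgfb1 promoter window: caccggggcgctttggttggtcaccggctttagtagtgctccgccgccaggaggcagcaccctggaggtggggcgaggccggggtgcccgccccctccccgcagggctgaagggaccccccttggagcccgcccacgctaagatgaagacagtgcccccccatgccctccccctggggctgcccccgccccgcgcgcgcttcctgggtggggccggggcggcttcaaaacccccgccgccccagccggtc
It took 5.21 Tn5 insertions per 1000000 fragment ends of a sum (IPM) in cluster 5 at E13.5, where the window was chosen, and 0.94 to 3.85 in the other 8 clusters. In bins of 500 bp with E13.5 and E15.5 summed, cluster 5 peaked outside this window, at 2.25 kb after the gene start (14.98 IPM). Genes and clusters were searched where the fit over all 3 libraries called the gene higher, so E15.5 entered the choice of the pair but not that of the window. The call of Tgfb1 in cluster 5 also passed without E15.5 (adjusted p = 0.000441). At E15.5 cluster 5 had 9.84 (counting interval 4.72 to 18.1, from 10 insertions) and the others 0.85 to 7.71, so the interval of cluster 5 took in the 7.71 of cluster 8. Over the whole fitted promoter cluster 7 was highest at E13.5 (107 CPM of promoter fragments against 75.1 in cluster 5) and cluster 5 at E15.5 (110 CPM).

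Of the activin genes, Inhbb was higher in progenitor-like cluster 9. It encodes the beta B chain of activin and inhibin and was at 53.1, 58.8 and 67.7 CPM there, and the other 20 sums lay between 4.64 and 49.9 with a median of 19.0. All 3 sums were above the others (1.69 ± 0.25, adjusted p = 1.04e-05). Neuron-like cluster 6, with 34.9 and 49.9 CPM, was also called higher (1.02 ± 0.28, adjusted p = 0.0266), but the call was lost without E13.5 (adjusted p 0.320) and without E15.5 (adjusted p 0.897) and was not made over the promoter (adjusted p = 0.713). Cluster 5 was lower at 12.8, 9.04 and 8.46 CPM (-1.43 ± 0.37, adjusted p = 0.0031). Neuron-like cluster 0 was at 4.64, 24.5 and 16.6 CPM. Inhba, for the beta A chain, was called in cluster 5 alone, at 10.3, 10.1 and 25.4 CPM (-1.03 ± 0.37, adjusted p = 0.031). At E15.5 cluster 5 was not low, with 5 clusters below it, the lowest being cluster 10 at 4.84 CPM.
The start-site window that separated cluster 9 for Inhbb is chr1:119422251-119422500 (GRCm38.p6, minus strand), 68.4% G and C.
Inhbb promoter window: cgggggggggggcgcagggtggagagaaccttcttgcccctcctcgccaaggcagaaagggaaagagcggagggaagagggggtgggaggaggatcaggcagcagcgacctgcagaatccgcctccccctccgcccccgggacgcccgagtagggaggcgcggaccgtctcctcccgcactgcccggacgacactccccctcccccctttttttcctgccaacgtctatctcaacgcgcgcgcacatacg
At E13.5, where it was chosen, it took 2.80 IPM in cluster 9 and 0.30 to 1.41 elsewhere. At E15.5 it took 3.37 in cluster 9 (interval 1.62 to 6.20) and at most 1.47 elsewhere, so that cluster 9 was again above the other 8. Its call, too, passed without E15.5 (adjusted p = 0.00181).

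Of the remaining ligands, Bmp2 was lower in cluster 5 (7.71, 6.96 and 11.3 CPM, -1.45 ± 0.40, adjusted p = 0.0048) and Gdf5, a joint-forming ligand, lower in cluster 8 (7.19 and 7.09 CPM, -1.27 ± 0.41, adjusted p = 0.0464). The counted span of Gdf5 shares 27.2% with Gm15557. Gdf10 was not called in any cluster.

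**Figure D2:**
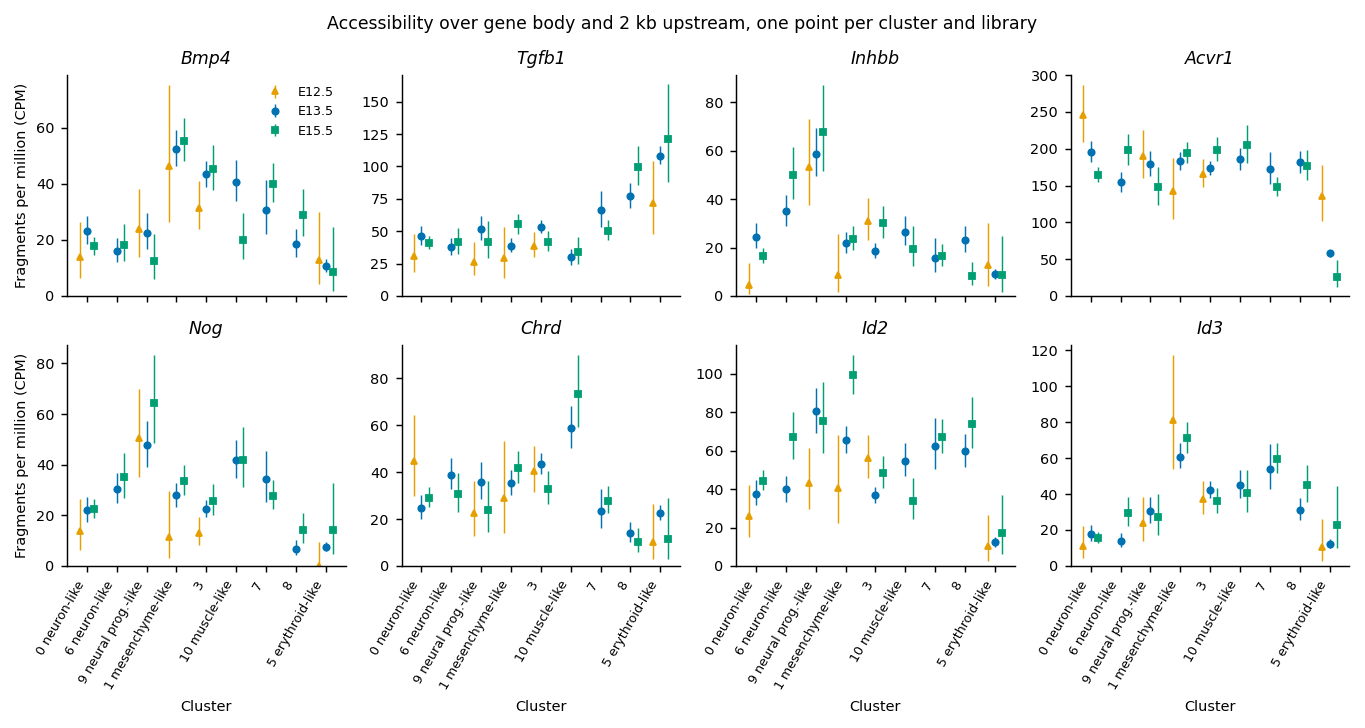
Fragments per 1000000 over gene body and 2 kb upstream for 8 genes, by cluster on the horizontal axis. Each point is a cluster in a library (triangle E12.5, circle E13.5, square E15.5) with its 95% Poisson interval, which covers counting error only. Bmp4 and Id3 peak in cluster 1, Inhbb and Nog in cluster 9, Chrd in cluster 10 and Tgfb1 in cluster 5.

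For the receptor genes the highest level over the lowest at E13.5 had a median ratio of 2.72 over the 10 genes, against 3.86 over the 14 ligands. A ratio of extremes also takes in counting error. Mean levels at E13.5 ran from 63.7 to 224 CPM in the receptors and from 17.2 to 135 CPM in the ligands. The difference, and the part of these levels in it, was not tested. The calls in cluster 5 were all lower, in 8 of the 10. Acvr1, a type I receptor for BMPs also known as Alk2, was at 136, 57.7 and 25.4 CPM in cluster 5, below all 20 other sums, which ran from 142 to 246 (-1.48 ± 0.23, adjusted p = 7.04e-06). Acvr2b, a type II receptor for activins and myostatin, was at 48.8, 38.1 and 42.3 CPM in cluster 5, again below all others (-1.26 ± 0.21, adjusted p = 1.56e-05). In muscle-like cluster 10 Acvr2b was at 124 and 142 CPM, above the other 21 sums at 38.1 to 112 (0.77 ± 0.18, adjusted p = 0.00501).

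Bmpr1b, a type I BMP receptor of cartilage and neural tissue, was at 263, 307 and 187 CPM in cluster 9 and at 254 and 274 CPM in cluster 10. It was at 77.1, 99.0 and 95.9 CPM in cluster 5 and at 98.8 and 91.0 CPM in cluster 8, so the high and the low clusters did not overlap each other. Clusters 1 and 3 were close to cluster 9 at E12.5, at 258 and 248 CPM, and at E15.5 clusters 1 (189 CPM), 3 (201 CPM) and 6 (195 CPM) lay above it. The call in cluster 9 was lost without E13.5 (adjusted p 0.575), and that in cluster 10 without E13.5 (adjusted p 0.131) or E15.5 (adjusted p 0.465). The log2 differences were 0.62 ± 0.14 (adjusted p = 0.00457), 0.77 ± 0.16 (adjusted p = 0.00139), -1.09 ± 0.17 (adjusted p = 8.27e-06) and -0.995 ± 0.19 (adjusted p = 0.000773). Its close relative Bmpr1a, at 108 CPM in the median of the other sums, was lower in clusters 5 (-0.80 ± 0.20, adjusted p = 0.00227) and 8 (-0.66 ± 0.20, adjusted p = 0.0356). Acvr2a was lower in cluster 5 at 46.2, 30.9 and 22.6 CPM (-1.10 ± 0.21, adjusted p = 0.000105). Bmpr2 was higher in cluster 9 (0.50, adjusted p = 0.046) and lower in cluster 5, though it missed the test between any classes. Its promoter was at 193, 120 and 61.1 CPM of promoter fragments in cluster 9, the last of these the lowest of the 9 clusters at E15.5, and was not called there (0.12 ± 0.21, adjusted p = 0.858). Acvr1b was lower in cluster 5 over the gene body (-0.57, adjusted p = 0.0316).

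Among the TGF-beta receptors, Tgfbr2 was higher in clusters 1 and 8 and lower in clusters 0, 5 and 9. Tgfbr2, the type II receptor for TGF-beta, was at 145, 158 and 157 CPM in cluster 1 and at 164 and 192 CPM in cluster 8. It was at 83.4, 64.8 and 58.8 CPM in cluster 0 and at 55.9, 65.6 and 63.2 CPM in cluster 9, below every sum of clusters 1 and 8. At E13.5 the highest level was that of cluster 7, at 170 CPM, which was not called. The log2 differences were 0.62 ± 0.15 (adjusted p = 0.0138), 0.82 ± 0.17 (adjusted p = 0.0024), -0.73 ± 0.17 (adjusted p = 0.00532) and -0.83 ± 0.18 (adjusted p = 0.00331). Tgfbr3, the co-receptor betaglycan, was at 345, 359 and 413 CPM in cluster 1 (0.74 ± 0.14, adjusted p = 0.000903) and lower in clusters 6 and 9. Tgfbr1, the type I receptor, differed between any classes (adjusted p = 0.0406) but in no single cluster.

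Over the promoter, taken as 1000 bp upstream to 100 bp downstream of the gene start, the contrast for Tgfbr2 was wider. Its promoter was at 80.1 and 63.5 CPM of promoter fragments in cluster 8 and at 17.5, 2.07 and 0 in cluster 9, differences of 1.84 ± 0.34 (adjusted p = 2.4e-05) and -2.94 ± 0.68 (adjusted p = 0.0014). Cluster 10 was at 38.9 and 77.2 (1.37 ± 0.40, adjusted p = 0.0195), the highest of the 9 clusters at E15.5. Sequences are given of the promoter and of a pair of intron windows, 1 chosen for its excess in cluster 1 and 1 for its excess in cluster 8. The capitals mark the Smad box CAGAC (or its complement GTCTG) and the E-box CAGCTG, a site of basic helix-loop-helix factors, and every sequence is on the strand of its gene.
Tgfbr2 promoter, chr9:116175364-116175613, minus strand: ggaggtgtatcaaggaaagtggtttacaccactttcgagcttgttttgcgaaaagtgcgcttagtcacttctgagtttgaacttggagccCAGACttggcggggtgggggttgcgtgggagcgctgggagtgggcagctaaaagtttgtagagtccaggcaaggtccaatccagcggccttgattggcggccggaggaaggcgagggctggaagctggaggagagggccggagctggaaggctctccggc
Tgfbr2 intron, cluster 1, chr9:116123001-116123250, minus strand: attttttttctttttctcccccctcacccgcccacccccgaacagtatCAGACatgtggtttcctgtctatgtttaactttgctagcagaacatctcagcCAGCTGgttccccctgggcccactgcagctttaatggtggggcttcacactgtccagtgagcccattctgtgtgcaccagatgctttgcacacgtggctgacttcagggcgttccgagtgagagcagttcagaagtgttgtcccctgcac
Tgfbr2 intron, cluster 8, chr9:116145251-116145500, minus strand: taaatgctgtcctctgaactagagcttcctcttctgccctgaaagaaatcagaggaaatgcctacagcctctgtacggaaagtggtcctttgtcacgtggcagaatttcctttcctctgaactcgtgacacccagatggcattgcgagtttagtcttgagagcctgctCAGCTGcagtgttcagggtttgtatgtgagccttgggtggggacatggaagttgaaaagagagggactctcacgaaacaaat
The intron windows lie 52.2 and 30.0 kb after the gene start and outside any exon of GENCODE vM21. They were chosen at E13.5 as the windows with the largest excess in clusters 1 and 8, at 3.06 and 3.16 IPM against at most 0.79 and 1.09 in the other 8 clusters. At E15.5 the first took 2.41 in cluster 1 (interval 1.63 to 3.44) and at most 1.28 elsewhere. The second took 4.04 in cluster 8 (interval 2.53 to 6.11) and at most 0.64 elsewhere. Both calls that led to the search were lost without E15.5 (adjusted p 0.274 in cluster 1 and 0.270 in cluster 8), so the E15.5 values are given as a description and not as an independent reading. The promoter itself took 3.85 and 3.30 IPM in cluster 8 at E13.5 and E15.5, 2.34 and 2.17 in cluster 1, 2.08 and 3.18 in cluster 10, and 0 in cluster 9 at both stages.

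The same search gave 21 cases of a window of 250 bp, 1 for each higher call where at least 20 insertions fell in a window. It took in only genes with an entry in the set of RefSeq promoters used here. In 8 of the 21 the window was highest in its own cluster at E15.5. The call behind the window passed without E15.5 in 7 of the 21 cases, and 3 of these 7 (Tgfb1 in cluster 5, and Inhbb and Bmpr1b in cluster 9) were among the 8. The 8 also included a window in an Acvr2b intron, shown because it holds both an E-box and a Smad box and was open in the muscle-like cluster, although its call was lost without E15.5 (adjusted p = 0.411).
Acvr2b intron, cluster 10, chr9:119409251-119409500, plus strand: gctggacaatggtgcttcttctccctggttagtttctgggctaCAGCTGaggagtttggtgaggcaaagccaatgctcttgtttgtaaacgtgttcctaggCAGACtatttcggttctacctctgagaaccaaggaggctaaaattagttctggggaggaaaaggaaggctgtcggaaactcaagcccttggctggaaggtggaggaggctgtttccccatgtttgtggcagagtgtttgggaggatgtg
It lies 7.26 kb after the gene start. Cluster 10 had 2.58 IPM there at E13.5 and 2.2 at E15.5 (interval 1.01 to 4.18, from 9 insertions), and the other clusters had at most 0.69 and 0.75. CAGAC, on either strand, is present in 42.2% of the 2903115 windows of this length in counted spans outside exons, CAGCTG in 9.93%, GGCGCC in 0.70% and AGATAA in 15.3%. The letters GGCGCC are those of a GC-rich site of Smad1 and Smad5, and AGATAA those of blood factors of the GATA family. The 21 cases were 19 different windows, since clusters 1 and 9 shared that of Id2 and clusters 5 and 8 that of Tgfb1. Of the 19, 9 held CAGAC, 7 CAGCTG, 1 AGATAA and 3 GGCGCC. The 3 with GGCGCC, of Chrd, Id2 and Smad9, were 77.6, 74.4 and 64.4% G and C. They were centred -0.25, -1.74 and 0.29 kb from the gene start. GGCGCC was present in 9.59% of RefSeq promoters of this length. The windows were not matched to the background in base content or place. A match is a run of letters and was not shown to be bound.

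**Figure D3:**
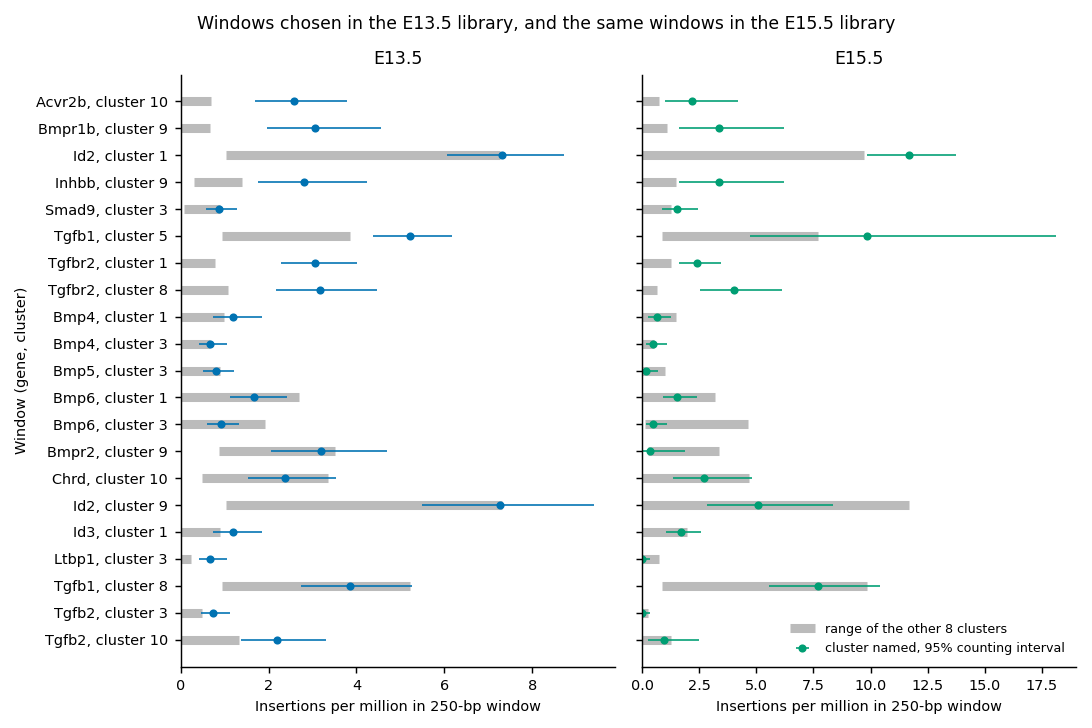
Insertions per 1000000 fragment ends in windows of 250 bp for 21 pairs of gene and cluster, with the window chosen in the E13.5 library (left) and shown for the E15.5 library (right), which took part in the choice of the pairs. Points give the cluster named on the vertical axis with its 95% counting interval, and grey bars the range of the other 8 clusters. In the 8 upper rows the point lies above the bar at E15.5, by little in the Id2, Smad9 and Tgfb1 rows.

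Among the Smads, the signal carriers Smad2 and Smad3 showed no call in any single cluster over the gene body, although Smad3 was highest in cluster 8 at E13.5 and E15.5 (310 and 357 CPM). Smad1, which carries BMP signals, was at 161 and 146 CPM in cluster 8, above the other 21 sums at 33.4 to 133 (0.79 ± 0.18, adjusted p = 0.00397). The call was lost without E13.5 (adjusted p 0.434) and without E15.5 (adjusted p 0.209). Over the promoter of Smad1, cluster 8 was at 56.8 CPM of promoter fragments at E13.5, against 68.0 in cluster 0. At E15.5 it was at 66.2 there, against 72.3 in cluster 7. Smad1 was lower in cluster 5 at 33.4, 51.7 and 59.2 CPM (-1.07 ± 0.21, adjusted p = 0.000126). Smad5 was at 18.0, 35.0 and 25.4 CPM in cluster 5, below all others (-0.86 ± 0.22, adjusted p = 0.00225). Smad9 was higher in cluster 3 (0.66 ± 0.18, adjusted p = 0.027) and lower in clusters 5 and 8. The shared Smad4 was lower in cluster 5 (-0.64 ± 0.20, adjusted p = 0.0118), as was the inhibitory Smad7, at 38.5, 70.7 and 118 CPM (-0.94 ± 0.20, adjusted p = 0.000343). At E15.5 the lowest cluster for Smad7 was cluster 0, at 111 CPM, and the call in cluster 5 was lost without E13.5 (adjusted p 0.0759).

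The other inhibitory Smad gene, Smad6, was called over the gene body in neuron-like cluster 0 alone, where it was lower. It was at 147, 112 and 96.1 CPM there and at 103 to 341 in the other sums, which overlapped (-0.96 ± 0.18, adjusted p = 0.000395). Cluster 6, also neuron-like, was at 149 and 189 CPM (-0.35 ± 0.20, adjusted p = 0.451), and cluster 5 at 103, 200.2 and 223 CPM (-0.31 ± 0.18, adjusted p = 0.189). The call was lost without E13.5 (adjusted p 0.0945) and without E15.5 (adjusted p 0.110). Over the promoter the gap was wider, at 84.8, 24.7 and 24.7 CPM of promoter fragments in cluster 0 and 55.6 to 244 elsewhere (-2.60 ± 0.21, adjusted p = 3.59e-24). The E12.5 sum, of 11 nuclei, was the highest of the 3. Over the promoter cluster 6 was at 55.6 and 92.6 (-1.06 ± 0.21, adjusted p = 5.82e-05), and the promoter was higher in clusters 1, 3, 7 and 8. The promoter of Smad3 showed the same order, at 95.4, 51.0 and 34.9 in cluster 0 (-1.66 ± 0.20, adjusted p = 1.59e-12), at 54.1 and 80.1 in cluster 6 (-1.02 ± 0.22, adjusted p = 0.000255) and at 121, 171 and 198 in cluster 1 (0.63 ± 0.15, adjusted p = 0.00107). The 250 bases before the RefSeq start of Smad6 are shown as the stretch just before the start, with none of the 4 motifs.
Smad6 promoter, chr9:64022060-64022309, minus strand: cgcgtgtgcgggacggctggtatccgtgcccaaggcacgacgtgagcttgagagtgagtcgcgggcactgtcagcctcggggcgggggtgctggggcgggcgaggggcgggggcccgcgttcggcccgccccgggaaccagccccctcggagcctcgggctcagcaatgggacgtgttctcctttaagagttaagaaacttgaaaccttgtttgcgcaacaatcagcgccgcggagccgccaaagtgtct
Here cluster 0 took 0.23 and 0.47 IPM at E13.5 and E15.5, cluster 6 took 1.26 and 3.69, and cluster 1 took 7.25 and 7.32. Cluster 0 was the lowest at both stages, while cluster 6 at E15.5 lay above clusters 9 (3.37), 10 (3.18) and 5 (0.98).

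Over the promoter, 38 of the 40 genes passed the filter (Bmp3 and Bmp5 did not) and 33 differed between any classes, where 46.9% of the 14026 promoters tested did. Cluster 5 had 24 promoters lower and 1 higher (40.1% of all called, 22.6% lower and 17.6% higher). Cluster 0 had 8 lower (14.5% called, 6.30% lower and 8.21% higher), cluster 1 had 10 higher (5.86% called, 4.82% higher and 1.04% lower) and cluster 3 had 11 higher (7.30% called, 5.89% higher and 1.41% lower). Cluster 9 had 7 higher and 1 lower (4.72% called, 4.28% higher and 0.442% lower), and cluster 10 had 5 higher (4.46% called, 3.94% higher and 0.52% lower). In cluster 6 there were 2 higher and 4 lower (6.43% called, 4.78% higher and 1.65% lower), in cluster 7 1 higher (2.89% called, 2.56% higher and 0.328% lower), and in cluster 8 3 higher and 7 lower (6.38% called, 4.16% higher and 2.22% lower). Of the 82 gene-body calls, 77 could be set against the promoter, and 51 of them passed there too and 26 did not. The set of RefSeq promoters used here held sequences for 27 of the 40 genes, in 33 windows. The other 13, Nog, Fst and Id1 among them, had no entry in that set and did not enter the window search. Of the 33 windows 15 held CAGAC, 8 GGCGCC, 2 CAGCTG and 1 AGATAA, where 42.2, 9.59, 13 and 9.99% of all 32817 promoters of this length in that set did.

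For the 4 antagonist genes the highest level over the lowest at E13.5 had a median ratio of 4.20, from 3.44 for Grem1 to 6.93 for Nog. Their mean levels at E13.5 ran from 12.4 to 33.1 CPM, and the part of counting error in these ratios was not tested. Nog, which encodes the BMP antagonist Noggin, was at 50.4, 47.7 and 64.3 CPM in cluster 9, above the other 20 sums at 0 to 41.9 (1.54 ± 0.22, adjusted p = 9.35e-06). Muscle-like cluster 10 came next at 41.7 and 41.9 CPM (0.93 ± 0.25, adjusted p = 0.0146). Cluster 5 was at 0, 7.54 and 14.1 CPM (-1.84 ± 0.34, adjusted p = 5.82e-05) and cluster 8 at 6.88 and 14.2 CPM (-1.51 ± 0.32, adjusted p = 0.00241). Fst encodes follistatin, which binds activins, and was at 36.4, 29.8 and 46.2 CPM in cluster 9, overlapping the others at 0 to 36.7 (1.14 ± 0.30, adjusted p = 0.0166). At E13.5 the 29.8 CPM of cluster 9 lay below clusters 0, 6, 7 and 10 (30.7 to 36.7 CPM), and the call was lost without E12.5 (adjusted p 0.0869) and without E15.5 (adjusted p 0.543). Fst was lower in cluster 5 at 0, 8.70 and 2.82 CPM (-2.04 ± 0.42, adjusted p = 0.000272). A sum of 0 at E12.5 in cluster 5 came from 389209 gene fragments.

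Chrd, for the BMP antagonist Chordin, peaked in muscle-like cluster 10 at 58.9 and 73.4 CPM, above the other 21 sums at 10.0 to 44.8 (1.35 ± 0.23, adjusted p = 7.64e-05). It was lowest in cluster 8 at 14.1 and 10.0 CPM (-1.48 ± 0.30, adjusted p = 0.00136), and its counted span shares 30.1% with the neighbouring Thpo. Its promoter, with a GGCGCC in capitals, was again highest in cluster 10 over the fitted window, at 135 and 154 CPM of promoter fragments (1.44 ± 0.25, adjusted p = 2.3e-06). There the lowest was cluster 5, at 27.3, 23.1 and 10.0, and not cluster 8, at 28.4 and 24.8.
Chrd promoter, chr16:20732877-20733126, plus strand: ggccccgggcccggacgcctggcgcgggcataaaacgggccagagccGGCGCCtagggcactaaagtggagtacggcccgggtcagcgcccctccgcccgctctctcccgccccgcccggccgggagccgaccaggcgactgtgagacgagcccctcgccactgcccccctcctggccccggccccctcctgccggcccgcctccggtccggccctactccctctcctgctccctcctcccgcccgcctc
In these 250 bases cluster 10 took 4.46 and 9.30 IPM at E13.5 and E15.5, cluster 1 took 4.13 and 7.32, and neuron-like cluster 0 took 0.63 and 1.07. At E12.5, however, cluster 0 took 5.76 (14 insertions), above the 4.29 of cluster 1. Grem1, for the antagonist Gremlin, was the least open of the 4 per length, at 0.85 CPM per kb on average at E13.5 over 14.5 kb, against 7.24 for Nog over 3.70 kb, and was not called in any cluster.

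The Id genes encode inhibitors of basic helix-loop-helix factors and respond directly to BMP signals. They were the most open members per length, with E13.5 means of 11.9 (Id1), 9.36 (Id2) and 8.04 (Id3) CPM per kb, where the median over the 40 genes was 1.40. The 4 genes with the shortest counted spans, 3.16 to 5.34 kb (Id1, Nog, Id3 and Id2), were also the 4 with the highest level per kb, though not in the order of their lengths, and the 2 kb upstream make up much of so short a span. The part of span length in these levels was not tested. All 3 Id genes were higher in mesenchyme-like cluster 1 over the gene body. Id3 was at 81.2, 60.9 and 71.3 CPM there, above all other sums at 10.3 to 59.7 (1.28 ± 0.19, adjusted p = 4.47e-05). It was at 10.8, 17.9 and 15.54 CPM in cluster 0 (-1.12 ± 0.23, adjusted p = 0.00113) and at 54.2 and 59.7 CPM in cluster 7 (0.92 ± 0.22, adjusted p = 0.0251). Id3 was also called lower in cluster 5, at 10.3, 12.2 and 22.6 CPM, the lowest cluster at E13.5. That call was lost without E13.5 (adjusted p 0.106). Over the promoter of Id3, cluster 3 was the highest at E13.5, at 66.7 CPM of promoter fragments against 60.5 in cluster 1. Cluster 7 raised the cartilage markers, whose 5 genes summed to 543 and 291 CPM at E13.5 and E15.5, with none at 0 at E13.5. Their part in the level of Id3 was not tested. Id1 was higher in cluster 1 at 37.7, 53.3 and 60.8 CPM (0.65 ± 0.19, adjusted p = 0.0396) and lower in cluster 0 (-0.66 ± 0.21, adjusted p = 0.0449). Its highest level at E13.5 was in cluster 7, at 66.98 CPM, and cluster 9 was at 52.4 and 53.0 CPM at E13.5 and E15.5. Both calls of Id1 were lost without E13.5 (adjusted p 0.614 in cluster 1 and 0.683 in cluster 0) and without E15.5 (0.597 and 0.396).

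Id2 was lowest in the erythroid-like cluster 5, at 10.3, 12.3 and 16.9 CPM, below all 20 other sums at 26.3 to 99.4 (-2.11 ± 0.29, adjusted p = 6.85e-07). It was at 40.6, 65.5 and 99.4 CPM in cluster 1 (0.71 ± 0.19, adjusted p = 0.0218) and at 43.4, 80.5 and 75.6 CPM in cluster 9 (0.68 ± 0.20, adjusted p = 0.0326). Both of these higher calls were lost without E13.5 (adjusted p 0.342 in cluster 1 and 0.631 in cluster 9) and without E15.5 (0.691 and 0.252). Neither was made over the promoter. There cluster 9 was the highest at E13.5, at 56.0 CPM of promoter fragments against 39.4 in cluster 1. At E15.5 it was cluster 6, at 57.6 against 53.4 in cluster 1. A window upstream of Id2 is shown for its Smad-type letters: it holds GGCGCC at 2 places, CAGAC once and CAGCTG once, all in capitals, and 74.4% of it is G and C.
Id2 upstream window, chr12:25098751-25099000, minus strand: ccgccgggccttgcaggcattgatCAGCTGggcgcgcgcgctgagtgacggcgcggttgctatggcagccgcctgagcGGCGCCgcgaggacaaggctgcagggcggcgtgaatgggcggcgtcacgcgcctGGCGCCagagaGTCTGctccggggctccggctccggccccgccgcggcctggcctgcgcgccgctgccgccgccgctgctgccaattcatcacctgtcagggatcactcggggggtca
Centred 1.74 kb before the gene start, it took 7.31 IPM in cluster 1 at E13.5, level with the 7.26 of cluster 9. At E15.5 it took 11.7 in cluster 1 (interval 9.84 to 13.7), and the next cluster, cluster 8, had 9.72. As E15.5 took part in the call that led to this window, that value is a description.

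Ltbp1, the matrix protein that anchors latent TGF-beta, was higher in cluster 3 (329, 374 and 397 CPM, 0.59 ± 0.17, adjusted p = 0.0336) and lower in cluster 5 (87.4, 169 and 220 CPM, -0.79 ± 0.20, adjusted p = 0.00244). The sums overlapped in both cases. At E15.5 cluster 1, at 443 CPM, lay above cluster 3, and clusters 9 (152 CPM), 8 (203 CPM) and 0 (211 CPM) lay below cluster 5. The call in cluster 3 was lost without E13.5 (adjusted p 0.471) and without E15.5 (adjusted p 0.240), and that in cluster 5 without E13.5 (adjusted p 0.0631). Over the promoter cluster 10 was the highest at E13.5 and E15.5. It was at 109 and 150 CPM of promoter fragments there, against 72.5 and 78.7 in cluster 3.

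**Figure D4:**
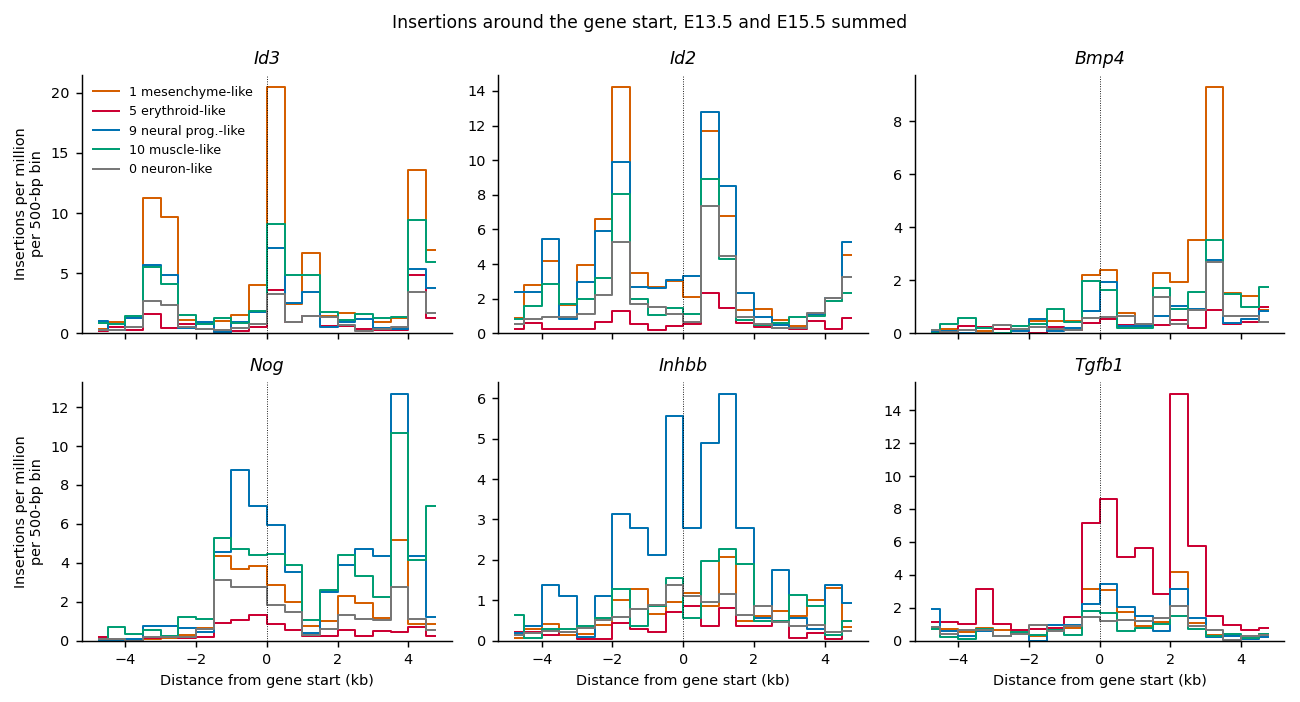
Tn5 insertions per 1000000 fragment ends in bins of 500 bp from 5 kb before to 5 kb after the gene start, for 6 genes, with E13.5 and E15.5 summed and a line for each of 5 clusters. Cluster 1 peaks at the start of Id3 (20.5 IPM) and at 3.25 kb in Bmp4 (9.30), and cluster 5 at 2.25 kb in Tgfb1 (14.98). The peaks of clusters 9 (12.7) and 10 (10.7) at 3.75 kb after the start of Nog lie past the end of this gene, whose body is 1.70 kb long, and outside the span counted for it.

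Between stages, clusters 0 and 1 allowed a comparison of the E15.5 with the E13.5 library. With 1 library per stage there is no test, and the intervals cover counting error only. In cluster 0, 3 of the 40 genes moved past 1.5-fold with an interval that left out 1, where 9.03% of all genes did. Gdf6 went from 40.4 to 21.6 CPM, a ratio of 0.534 (0.422 to 0.675). Fst went from 33.2 to 20.1 CPM, a ratio of 0.604 (0.470 to 0.778), and Gdf5 from 9.07 to 13.8 CPM, a ratio of 1.52 (1.01 to 2.33). Over the promoter the ratio of Gdf5 was 0.771 instead.

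In cluster 1, 3 of the 40 did so as well, where 10.1% of all genes did. Id2 went from 65.5 to 99.4 CPM, a ratio of 1.52 (1.31 to 1.77). Gdf6 went from 59.5 to 39.2 CPM (0.659, 0.538 to 0.805) and Grem1 from 19.6 to 12.1 CPM (0.617, 0.425 to 0.884). Gdf6 was thus past 1.5-fold lower at E15.5 in both clusters. At any size, the interval left out 1 for 15 genes in cluster 0 (30.9% of all genes) and 19 in cluster 1 (32.3%). The median ratio over the 40 genes was 0.97 and 0.99, against 1.01 and 0.99 over all genes.

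**Figure D5:**
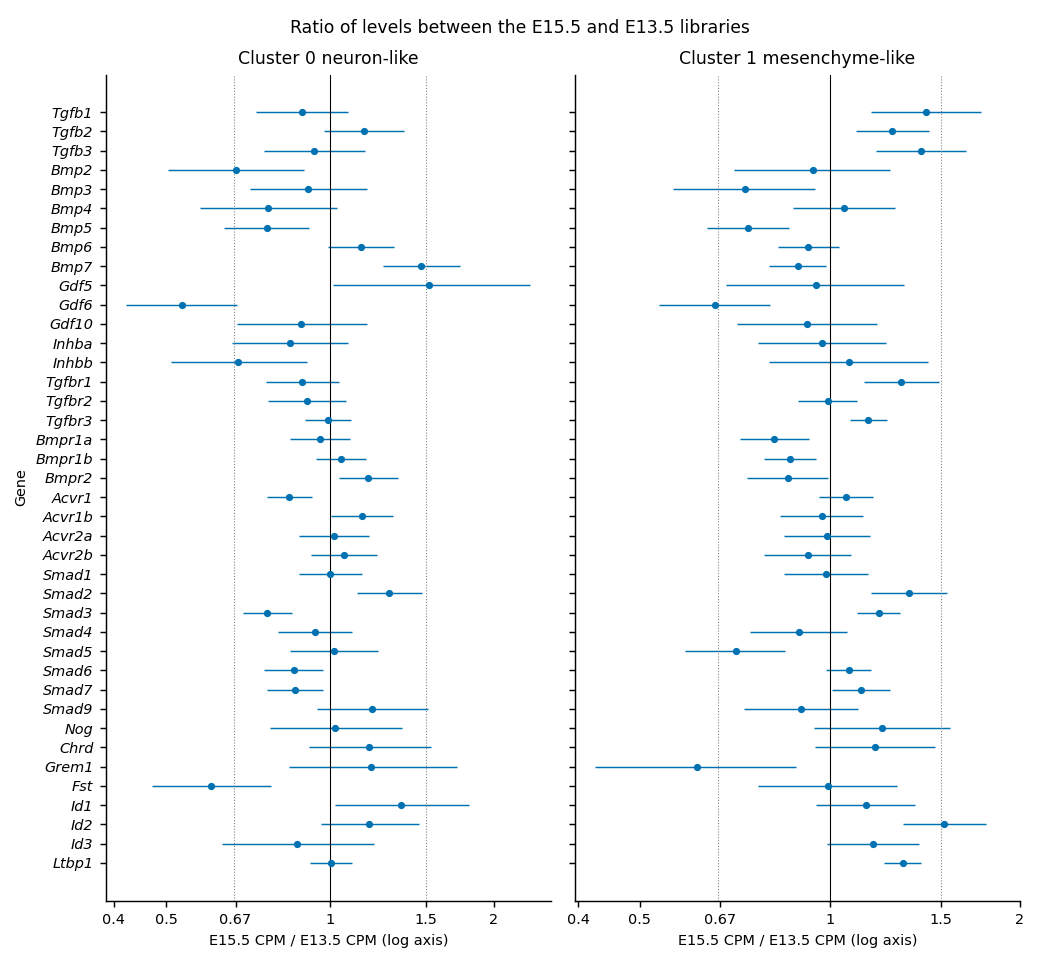
Ratio of the E15.5 to the E13.5 level in CPM for the 40 genes, in neuron-like cluster 0 (left) and mesenchyme-like cluster 1 (right), on a log axis. Bars are 95% intervals of a ratio of counts, and dotted lines mark 1.5-fold. Ratios run from 0.534 to 1.52 in cluster 0 and from 0.617 to 1.52 in cluster 1.

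The order of clusters held between stages about as well for these genes as for others at its upper end. The cluster with the highest level was the same at E13.5 and E15.5 for 17 of the 40 genes (42.5%), and for 37.5% of all genes tested. The lowest cluster was the same for 20 of the 40 (50.0%), and for 26.9% of all genes.

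Cluster 11, the other erythroid-like cluster, had a usable sum at E13.5 only (35 nuclei) and did not enter the fit. Of the 40 genes, 9 (22.5%) had no fragment there, 22 (55%) had at most 3 fragments (6.41 CPM) and 32 (80%) lay below all 9 fitted clusters at E13.5, where 17.4, 36.7 and 49.5% of all genes tested did. Above all 9 lay 3 genes (7.5%, against 27.9% of all genes). Tgfb1 was at 169 CPM (134 to 211) against a highest level of 108 elsewhere. Smad2 was at 201 CPM (162 to 246) against 115, and the activin receptor gene Acvr1b at 154 CPM (120 to 194) against 127. In this cluster 41.4% of gene fragments lay in promoters, and the part of that share in these levels was not tested.

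A further list of 65 genes of the same pathway, of which 64 were tested, gave 29 lower (45.3%, against 16.4% of all genes) and 4 higher (6.25%, against 14.2%) in cluster 5. In cluster 10 it gave 11 higher (17.2%, against 5.69%) and 1 lower (1.56%, against 1.07%), and in cluster 9 8 of 64 higher (against 4.16%) and 2 lower (3.12%, against 1.00%). Cluster 8 had 6 higher (9.38%, against 4.54%) and 8 of 64 lower (against 3.78%), cluster 1 had 7 higher (10.9%, against 2.90%) and cluster 3 had 5 higher (7.81%, against 3.59%). In cluster 0, 5 were lower (7.81%, against 2.74%) and 2 higher (3.12%, against 5.51%). The 2 higher in cluster 6 (3.12%, against 3.33%) and the 1 in cluster 7 (1.56%, against 1.26%) were close to the shares over all genes. Its 6 genes with the smallest adjusted p were called in clusters 5 and 10. In cluster 5 Id4, the fourth Id gene, was at 5.14, 5.91 and 5.64 CPM against 18.8 to 80.9 elsewhere (-2.80 ± 0.30, adjusted p = 5.81e-09). Also lower there were the ligand gene Gdf11 (-2.08 ± 0.29, adjusted p = 7.16e-07), the BMP co-receptor gene Rgmb (-1.87 ± 0.26, adjusted p = 9.09e-07) and Tgif1, a repressor of Smad targets (-1.69 ± 0.24, adjusted p = 9.29e-07).

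In muscle-like cluster 10 Hfe2, the hemojuvelin gene and a BMP co-receptor of muscle and liver, was at 36.7 and 36.3 CPM against 2.82 to 17.0 elsewhere (2.49 ± 0.30, adjusted p = 4.16e-07). Itgb6, a chain of an integrin that activates TGF-beta, was at 204 and 225 CPM against 22.6 to 138 (1.56 ± 0.16, adjusted p = 2.74e-08). Both lay above all other sums.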

How the data were processed

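Single-nucleus ATAC-seq of 3 libraries was analysed. Per the file headers, the authors made the fragment files with Cell Ranger ATAC 2.0.0 on mm10, which shifts ends to the Tn5 insertion and keeps each duplicate group once. The deposited count beside each fragment is its read pairs, and the deposited cell table gives whole-number counts per nucleus and a cluster. The submitters' processing notes also name Seurat 4.1.0 and Signac 1.6.0. Per their methods, the authors co-embedded nuclei and spatial profiles (peak matrix, anchors by reciprocal LSI, then Harmony by sample). The resolution and dimensions behind the deposited nuclear clusters are not given in the sources used here, and 18 columns of the table were not used.

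Unique fragments were counted over 21593 protein-coding genes of GENCODE vM21 (body plus 2 kb upstream; genes over 500 kb and the Pcdh and Ugt clusters left out) and over promoters, without strand, and overlapping genes share fragments. Reference lengths and fragment ends fitted mm10 coordinates (GRCm38.p6). Sums per cluster and library with at least 10 nuclei were tested with edgeR 4.0.16 in R 4.3.3 (TMM, filterByExpr, quasi-likelihood, library as block), each cluster against the mean of the others, two-sided, with Benjamini-Hochberg adjustment over all 19196 genes. The library is the replicate, and its spread includes stage. The fit had 12 residual degrees of freedom. The sums held 344651 to 8625628 gene fragments. The fit was tested on simulated data with changes in cluster 1 among well-counted genes. It called 34.3% of the 1.5-fold, 98.5% of the 2-fold and 100% of the 4-fold changes. Of 18632 unchanged genes 5 were called. The simulation had no library effect and a dispersion below the fitted 0.038, so a gene that was not called may still differ. Alternatives were DESeq2 1.42.0, other scalings and filters, the promoter, and leaving out each library, clusters 3, 7 and 8, linked barcodes or shallow nuclei.

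Full values are given for the 25 called genes of smallest adjusted p, in the cluster of largest difference, and the rest briefly. The genes, lists and tests were chosen with earlier results of these data known, and the 250-bp windows, their motifs and the named sequences after the values were seen. Windows were scaled to all fragment ends of a sum, and those that touched an exon of any gene were left out. Of the rest, the one with the largest excess over the mean of the other clusters at E13.5 and at least 20 insertions was taken. It need not be the most open stretch of its gene. For Id3 in cluster 1 it had 1.20 IPM at E13.5, where the 250 bases before the RefSeq start, which overlap an exon, had 16.1. Poisson, binomial-based and ratio intervals (95%) cover counting error only.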

Additional observations from a re-analysis of the deposited data

Results flagged for a closer look

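Fragments over the 40 genes also lay in barcodes and clusters that no comparison used, above the 3 fragments that a count of 0 allows. Barcodes outside the deposited cell table held 1283, 33813 and 22015 such fragments in the order of stage, which were 0.296, 0.332 and 0.327% of their gene fragments, where the nuclei of the table had 0.351, 0.319 and 0.337%. Cluster 2 held 459, 2400 and 1555 of them at the 3 stages, and cluster 4 held 61, 130 and 127.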

How the results depend on the processing

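Over the 82 calls no alternative turned a direction. DESeq2, RLE size factors, no filter on low counts and 1 barcode per linked group each lost 1 call, nuclei with at least 3000 fragments lost none, and the fit with no replicate block (the library term left out) lost 3. The scale of all fragments lost 17, the promoter 26 of 77, at least 20 nuclei 9 of 53, and leaving out clusters 3, 7 and 8 lost 12 of 61. Counts of called genes that moved by over 1.5 times were, in cluster 0 (4), 8 over promoters, 7 with at least 20 nuclei and 2 without clusters 3, 7 and 8. In cluster 3 (8) the count was 5 with at least 20 nuclei. In cluster 6 (2) it was 1 with all fragments as scale, 1 with no filter, 6 over promoters, 4 with at least 20 nuclei and 0 without clusters 3, 7 and 8. In cluster 7 (1) it was 4 with all fragments as scale, 3 with DESeq2 and 3 with at least 20 nuclei, and in cluster 9 (9) it was 4 without clusters 3, 7 and 8. Past 2-fold, 0 genes differed between stages in cluster 0 and 0 in cluster 1. The stage ratio of Gdf5 in cluster 0 was reversed over the promoter, at 0.771. Leaving out a library gave 13 to 33 genes between any classes, 0 to 6 in cluster 0, 1 to 11 in cluster 1, 0 to 10 in cluster 3, 9 to 28 in cluster 5, 0 to 4 in clusters 6 and 7, 0 to 14 in cluster 8, 3 to 8 in cluster 9 and 0 to 7 in cluster 10. In the 9 fits without a library or clusters that called 0 genes of the set, 1 to 11 had an unadjusted p under 0.05 by edgeR. Where a cluster kept 1 sum, it was assumed to vary like the others. The shares of all genes called in the fits that left out a library were not tallied. Cluster 5 gave no value with at least 20 nuclei. The causes were not tested. The depth of the cluster 5 sums at E12.5 and E15.5, where 1 fragment is over 2 CPM, limits low genes.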
